A study of Mus musculus with 40 samples.

Results

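The events described here are deletions in an edited DARLIN array that carry a long run of inserted bases in place of what was lost. They were chosen by 1 measured value, the number of inserted bases. Every event listed as a deletion with inserted bases (a delins event) that had 8 or more of them was taken. Of 12889 delins events in the library, 2469 met this rule (19.2%, 95% exact binomial interval 18.5 to 19.8%), out of 42668 edit events of every kind. They lay in 1417 of 12767 alleles (11.1%, 10.6 to 11.7%), and these alleles held 2363 of 32342 UMIs (7.31%, 7.03 to 7.60%). An allele is 1 distinct edited sequence of the array. Each UMI (unique molecular identifier) stands for 1 reverse-transcribed array RNA, and a cell can give several.

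DARLIN is a mouse line for lineage tracing in which Cas9 cuts a transgenic array of target sites and the repaired sequence is inherited by all descendants of the cell. The Cas9 carries terminal deoxynucleotidyl transferase (TdT), which extends a DNA end without copying a template, so that short added stretches increase the number of distinguishable alleles. Because several sites of 1 array can be cut in the same cell, the stretch between cuts can be lost, and bases can be added where the ends are rejoined.

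The series holds 40 mouse liver samples from 5 animals, in 18 combinations of lobe and stage mark, and 1 of them was analysed here, the right inferior lobe of animal YK184 with the mark E15_5. The labels do not say whether that mark is a time of induction or of collection, and they give no age, genotype beyond DARLIN or treatment for this animal. Its group has 2 samples, and the other was not analysed here, so no stages, lobes or animals were compared and there are no replicates. The array is the 1 at the Col1a1 locus. Col1a1, which encodes a chain of type I collagen, lies on chromosome 11 from base 94936224 to base 94953042 of GRCm38.p6, and no source used here places the array relative to its exons.

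Base 1 is the first base of the array. It has 10 target sites of 20 bases, each in a repeat unit of 27 bases, and Cas9 is predicted to cut after base 22 at site 1 and then every 27 bases up to base 265 at site 10. An end was called near a cut when it lay within 3 bases of it, a range that takes 7 of the 27 positions of a unit (25.9%). All intervals given are 95% exact intervals for counting error over the events or alleles of 1 library. Events that share an allele, a position or an insert are not independent, so ranges that do not overlap are stated as such and no test was run.

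The same inserted letters recurred in many alleles. The 2469 events held 1104 distinct inserts, of which 262 were found in 2 or more alleles (23.7%, 21.3 to 26.4%) and 27 in 10 or more. The recurrent ones accounted for 1627 events (65.9%, 64.0 to 67.8%). The 10 inserts found in the most alleles are shown because they alone made up 620 events (25.1%). Each is written 5′ to 3′ along the array, and capitals mark the longest part of 5 or more letters that it shares with TCGACTCCAT, the run spelled by the 4 commonest words of the longest inserts, described further on.
insert i: tgTCGACTCCATcg
insert ii: CTCCATcg
insert iii: tgtgcgtacagtcgcg
insert iv: TCGACgagcgcgctc
insert v: CGACTCCATcg
insert vi: gtcgCGACTCCATag
insert vii: tcagcgtc
insert viii: TCGACTCCA
insert ix: tgcgcgtatcg
insert x: gagcgcgctc

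Of these 10 inserts, 6 share a part of that run, and 3 of the 6 end in the letters CCATCG. Inserts iv and x share their last 10 letters, gagcgcgctc. Insert i, of 14 bases, was found in 130 alleles with 226 UMIs. Insert ii, of 8 bases, was found in 105 alleles with 215 UMIs and insert iii, of 16 bases, in 82 alleles with 139 UMIs. The other 7 were each found in 31 to 60 alleles, with 48 to 110 UMIs.

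These inserts recurred at particular places in the array, some more strictly than others. Insert i lay in a deletion of bases 223 to 265 in 122 of its 130 events. Insert ii replaced bases 224 to 265 in 95 of 105 events, insert v replaced bases 154 to 265 in 47 of 51, and insert vi replaced bases 210 to 265 in 41 of 43. These 4 inserts thus ended at the cut of site 10 and began at fixed bases to its left. Insert iii was fixed at the other end: all 82 of its deletions ended at base 72, while they began at 9 different bases, most often base 25 (43 events). Insert iv ended at base 153 in 53 of 60 events and began at 10 different bases. Insert viii began at base 36 in all 38 of its events, and these ended at 7 different bases. Insert vii replaced bases 25 to 30 in 30 of 42 events, and insert x ended at base 153 in 27 of 31. Insert ix was spread more widely, with 25 of 38 events starting at base 90 and 19 ending at base 104.

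The same held for the ends themselves. Among starts or ends used by 40 or more of the events, 15 lay more than 3 bases from any cut, 8 ends and 7 starts. Together they bounded 1503 of the 2469 deletions (60.9%, 58.9 to 62.8%). The same 15 places bounded 2.76% of 7829 delins events with 1 to 3 inserted bases (2.41 to 3.15%), 23.3% of 2591 with 4 to 7 (21.7 to 24.99%) and 1.45% of 13856 deletions without inserted bases (1.26 to 1.66%). The places were picked on the long-insert events, so a high share in those events follows from the choice and only the other 3 shares are free of it.

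At 14 of the 15 places, at least 50% of the events shared a stretch of 5 or more letters at the fixed end of the insert. The following inserts are shown to make this visible, with the shared stretch in capitals and the varying part in lower case, for deletions that end at base 72, at base 153 and at base 216.
ending at 72, in 82 events: TGTGCGTACAGTCGCG
ending at 72, in 10 events: acgTGTGCGTACAGTCGCG
ending at 72, in 9 events: tcgTGTGCGTACAGTCGCG
ending at 153, in 53 events: TCGACGAGCGCGCTC
ending at 153, in 17 events: tccatagtTCGACGAGCGCGCTC
ending at 153, in 15 events: tccatagcTCGACGAGCGCGCTC
ending at 216, in 10 events: catcgcTATGCGC
ending at 216, in 9 events: catagTATGCGC

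Of 178 deletions that ended at base 72, 164 had inserts that closed with the 16 letters TGTGCGTACAGTCGCG (92.1%, 87.2 to 95.6%). Of 242 that ended at base 153, 124 closed with the 15 letters TCGACGAGCGCGCTC (51.2%, 44.8 to 57.7%). Of 116 that ended at base 216, 104 closed with TATGCGC (89.7%, 82.6 to 94.5%). Deletions that ended at base 69 closed with TCTGCGT in 59 of 61, those that ended at base 146 with TCGCTCATA in 40 of 48, and those that ended at base 30 with CGTCAGCGTC in 51 of 93. What varied in these families was the length and letters ahead of a constant tail.

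Deletions with a fixed start showed the mirror arrangement, a constant head and a varying tail.
starting at 223, in 129 events: TGTCGACTCCATCG
starting at 223, in 4 events: TGTCGACTCCATCGt
starting at 154, in 49 events: CGACTCCATCG
starting at 154, in 6 events: CGACTCCATCGttcgta
starting at 36, in 38 events: TCGACTCCA
starting at 36, in 13 events: TCGACTCCAt
starting at 36, in 5 events: TCGACTCCAtcg
starting at 64, in 6 events: CCATCGctatgc

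Inserts opened with these 14 letters in 135 of 184 deletions that started at base 223 (73.4%, 66.4 to 79.6%). They opened with CGACTCCATCG in 76 of 144 that started at base 154 (52.8%, 44.3 to 61.1%) and with TCGACTCCA in 92 of 122 that started at base 36 (75.4%, 66.8 to 82.8%). In the deletions that started at base 224, 111 of 133 opened with CTCCATCG (83.5%, 76.0 to 89.3%).

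Starts near a cut were mixed in this respect. Base 23, the first base after the cut of site 1, was the commonest start, with 300 events. These had 185 distinct inserts, and no opening stretch of 5 letters was shared by 50% of them. At base 50, the first base after the cut of site 2, 84 events had 65 distinct inserts and no such stretch. Other starts near a cut did share one: at base 25, 43 of 77 inserts were the same 16 letters as insert iii (55.8%), and shared openings were found at base 75 in 83.9%, at base 210 in 57.4% and at base 160 in 52.5%. The commonest end was base 265, directly before the cut of site 10, with 466 events and 86 distinct inserts, of which 313 events closed with CTCCATCG (67.2%, 62.7 to 71.4%). Here most of the events were those that started at bases 223, 224, 154 and 210, described above.

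Fewer of these deletions met a cut than was the case for shorter inserts. Of the 2469 deletions, 1075 started near a cut (43.5%, 41.6 to 45.5%) and 1037 ended near one (42.0%, 40.04 to 44.0%). With 1 to 3 inserted bases the shares were 89.3% (88.6 to 90.0%) and 85.8% (85.0 to 86.6%), and with 4 to 7 they were 57.6% (55.7 to 59.5%) and 63.2% (61.3 to 65.1%). Deletions without inserted bases started near a cut in 80.2% and ended near one in 78.6%. Both ends were near a cut in 361 of the long-insert deletions (14.6%, 13.3 to 16.1%), against 79.7% with 1 to 3 inserted bases. Neither end was near one in 718 (29.1%, 27.3 to 30.9%), against 4.60%. Because the ends at bases 72 and 153 lie 4 bases before a cut and that at base 216 lies 5 after one, the share ending near a cut rose to 70.2% when 5 bases were allowed.

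All 10 target sites were touched by these deletions, where a site counts as touched when any base of its cut window, the last 7 of the target, was lost. Site 9 was touched most often, by 760 events (30.8%, 28.96 to 32.6%), and its interval lay above those of all other sites except site 5 (27.5%, 25.8 to 29.4%), which it overlapped. Site 2 was touched by 26.3%, site 8 by 24.9%, site 4 by 24.7%, site 10 by 22.4%, site 3 by 22.2%, site 6 by 21.3%, site 1 by 20.05% and site 7 by 19.1%. Neighbours in this order had overlapping intervals. A few recurrent inserts weigh on the order. Inserts i, ii, v and vi, in their commonest deletions, removed the windows of sites 9 and 10 in 122, 95, 47 and 41 events. The order was not recomputed without them. Starts near a cut were concentrated at site 1, with 473 of 1075, and ends near a cut at site 10, with 539 of 1037. This was not particular to long inserts. Base 23 was the start of 12.2% of all long-insert events and of 33.4% of delins events with 1 to 3 inserted bases. Base 265 was the end of 18.9% and 16.5%.

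Windows of 2 or more sites were touched by 1461 events (59.2%, 57.2 to 61.1%), against 84.0% with 1 to 3 inserted bases and 72.6% for deletions without inserted bases. The share with 4 to 7 inserted bases was 59.9% (58.0 to 61.8%), which overlapped that of the long inserts. The outermost sites touched were most often 9 and 10 (284 events, 11.5%), 1 and 2 (173, 7.01%), 2 and 5 (84, 3.40%), 3 and 5 (83, 3.36%) and 8 and 10 (80, 3.24%). The intervals of the last 3 pairs overlapped. Most events of the first pair were insert i at bases 223 to 265 (122 events) and insert ii at bases 224 to 265 (95). No window was touched by 158 events (6.40%), against 1.94% with 1 to 3 inserted bases.

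The deletions were short for the library. They removed a median of 42 bases (interval 42 to 43, quartiles 19 and 70), with a range of 1 to 259. The median was 108 bases with 1 to 3 inserted bases, 46 with 4 to 7 and 80 for deletions without inserted bases. Within the long-insert events the median changed little with insert length: 42 bases for inserts of 8 to 12, 43 for 13 to 19, 50 for 20 to 26 (27 to 57) and 37 for 27 or more (17 to 75). Across the 2469 events, Spearman's rho between inserted and deleted length was 0.04, given as a description over events that share inserts and positions. In 428 events more bases were inserted than were deleted (17.3%), in 20 the numbers were equal, and in 2021 fewer were inserted (81.9%).

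Inserted length, the value that chose these events, did not fall smoothly. The median was 12 bases, the quartiles were 9 and 15, and the longest insert had 42. There were 404 events with exactly 7 inserted bases, just outside the rule, and 414 with exactly 8, just inside it. From 8 bases the number fell to 218 at 10, then stood at 278 at 11, 132 at 13, 236 at 14, 174 at 15, 186 at 16 and 56 at 17. Single inserts made up much of these rises: insert i gave 130 of the 236 events of 14 bases, insert iii gave 82 of the 186 of 16 bases, and insert ii gave 105 of the 414 of 8 bases. At 23 bases there were 51 events, against 17 at 22 and 27 at 24. An insert of at least 1 repeat unit, 27 bases, occurred in 57 events and of 20 or more in 239.

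On both sides of the threshold some values had overlapping intervals and others did not. With exactly 7 inserted bases, 53.7% started near a cut (48.7 to 58.7%), and with exactly 8, 46.9% did (42.0 to 51.8%). The shares that ended near a cut were 42.6% and 50%, and both pairs of intervals overlapped. The share within 10 retained bases of another event, a measure taken up further on, was 74.0% with 7 (69.4 to 78.2%) and 84.8% with 8 (80.95 to 88.1%), which did not overlap. A or G made up 49.2% and 41.1% of the inserted letters. Insert ii, mostly C and T, alone gave 105 of the 414 events with 8 bases, and these values were not recomputed without it. Some families also reached below the threshold. At the ends at bases 43 and 146, all 57 and all 43 events with 4 to 7 inserted bases closed with the same 4 letters as the shared stretch of the longer inserts. At the start at base 195, which had the most events with 4 to 7 inserted bases, 31 of 108 opened with its 4 letters (28.7%), and at the end at base 153, 1 of 5 closed with them. At base 72 there were 3 events with 4 to 7 inserted bases, against 178 with 8 or more.

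The bases added differed from those of short inserts. In delins events with 1 to 3 inserted bases, A made up 31.9% and G 37.2% of the letters, so that 69.1% were A or G. In those with 4 to 7 the share of A or G was 51.2%. In the long inserts it was 43.3% of 32463 letters, with C at 33.2%, G at 25.5%, T at 23.5% and A at 17.8%. C, at 11.7% in the shortest class, was the least common letter there and the commonest in the long inserts. Between classes of long inserts the mix hardly moved: A or G made up 43.6% at 8 to 12 bases, 42.8% at 13 to 19, 43.8% at 20 to 26 and 44.7% at 27 or more. The share of G or C was 58.7% over all long inserts and 48.9% at 1 to 3 bases. Letters of 1 insert, and of inserts that recur, are not independent, so no interval is given.

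Where the deletion started away from a cut, the first inserted letter was C in 52.6% and T in 37.9% of 1394 events, and A or G in 9.47% (7.98 to 11.1%). Where it started near a cut, the first letter was T in 40.8%, G in 31.0%, A in 17.7% and C in 10.5% of 1075 events, and A or G in 48.7% (45.6 to 51.7%). The last letter was G in 57.0% of the 1037 events that ended near a cut, with A or G in 64.7% (61.7 to 67.6%). Elsewhere it was C in 41.1%. Repeated inserts weigh on these shares, and the intervals take no account of it. Shared openings that begin with C or T were in 135 events at base 223, 111 at base 224, 92 at base 36 and 76 at base 154. Of the events that ended at base 265, 313 closed with CTCCATCG. The shares thus do not give a preference for letters apart from these families.

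Most inserts shared letter strings with other inserts. The 1104 distinct inserts have 7766 places where an 8-letter word can be read, and 2140 different words stood there. Of the inserts, 995 (90.1%) shared an 8-letter word with another distinct insert, and 902 (81.7%) shared one with the reverse complement of another. The former was so for 741 of the 842 inserts that were found in 1 allele only (88.0%, 85.6 to 90.1%). Neither the word nor its reverse complement was shared by 77 inserts (6.97%), which had a median of 9 bases, and 48 of these had 8 or 9 bases and so held no more than 1 or 2 words to compare. In these 77, A or G made up 49.7% of the letters. An insert counted as sharing when any of its words was found in any 1 other insert, and no level by chance was computed. The stretch gagcgcgctc is its own reverse complement, so inserts that share it counted in both ways. These shares therefore do not compare the 2 strands, and the same holds for the insertions counted in this way further on.

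Among 167 distinct inserts of 20 or more bases, the commonest 7-letter word was CGACTCC, in 81 (48.5%), followed by GACTCCA in 73, ACTCCAT in 70 and TCGACTC in 61, which overlap to spell TCGACTCCAT. CGTATCG and CTCCATC, each in 38, were next. The reverse complements of these 6 words were rarer. This largely follows from the choice, since the words were picked as the commonest in these same inserts. It also holds for the count over all 1104 inserts, which include the 167. GGAGTCG was in 4 of the 167, TGGAGTC in 8, ATGGAGT in 7, GAGTCGA in 4, CGATACG in 2 and GATGGAG in 1. Over all 1104 inserts, GACTCCA was in 183 and TGGAGTC in 19. Of 30 distinct insertions without any deletion and with 20 or more bases, 12 held GACTCCA and 9 held TGGAGTC. There were 72 such insertion events of 8 or more bases in all. Of their 69 distinct inserts, 66 shared an 8-letter word with the long delins inserts (95.7%, 87.8 to 99.1%) and 61 with their reverse complements (88.4%, 78.4 to 94.9%), with overlapping intervals.

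The 3 longest inserts are shown because they hold the common run or 9 of its letters, again in capitals, together with letters of the families above. The next longest, of 40 bases, lacked GACTCCA.
of 42 bases, in a deletion of bases 263 to 265: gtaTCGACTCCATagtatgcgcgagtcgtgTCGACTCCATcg
of 41 bases, in a deletion of base 239: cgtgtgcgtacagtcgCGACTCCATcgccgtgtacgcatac
of 41 bases, in a deletion of bases 23 to 30: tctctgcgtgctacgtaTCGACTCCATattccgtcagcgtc

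The insert of 42 bases was the longest in the library and was found in 1 allele with 1 UMI. It is the only distinct insert that held GACTCCA at 2 places, which lay 27 bases apart, the length of a repeat unit. Of the inserts of 41 bases, the one at base 239 has the letters tgtgcgtacagtcgcg of insert iii in it, and the other closes with cgtcagcgtc, the tail of deletions that end at base 30. Both had 1 UMI and were named after their letters were seen. Among alleles with 3 or more UMIs, the longest insert had 35 bases and replaced bases 73 to 85 of an allele with 4 UMIs. It lacked GACTCCA, and its longest run shared with any other insert had 8 letters.

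Long inserts seldom stood apart from other edits. Of the 2469 events, 2166 lay within 10 retained bases of another event of the same allele (87.7%, 86.4 to 89.0%), where retained bases are those listed as unaltered between them. This share was 65.3% with 4 to 7 inserted bases (63.4 to 67.1%), 14.7% with 1 to 3 (13.9 to 15.5%), 10.8% for deletions without inserted bases (10.3 to 11.4%) and 11.1% for the 72 long insertions (4.92 to 20.7%). This measure and those built on it were chosen after the data had been seen. With a limit of 6 retained bases the share was 68.4%. How the program that called alleles divides an altered stretch into events is unknown, and its part in these patterns was not tested.

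The retained stretches were themselves recurrent. There were 266 different ones beside long-insert events, seen 2413 times, and the 10 commonest made up 44.3% of these. Bases 73 to 74 were retained between 2 events 171 times, bases 154 to 159 were 170 times, bases 217 to 222 were 163 times, bases 147 to 153 were 120 times and bases 31 to 35 were 105 times. The families above abut these stretches: deletions that end at base 72, 153, 216, 146 or 30 are followed by them, and those that start at base 75, 160, 223, 154 or 36 come after them.

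When events with at most 10 retained bases between neighbours were joined, the long-insert events fell into 1236 groups of 2 or more events and 303 single events. The groups lay in 1161 alleles with 1921 UMIs and had a median of 3 events and a maximum of 10. Taken as a whole, a group met the cuts more often than the long-insert events in it did. Of the 1236 groups, 1006 began near a cut (81.4%, 79.1 to 83.5%), 1149 ended near one (93.0%, 91.4 to 94.3%) and 939 did both (76.0%, 73.5 to 78.3%). The 2166 long-insert events in these groups had both ends near a cut in 8.13%. Part of this gap is set by the joining. It leaves out the inner ends, which face each other across at most 10 retained bases and so cannot lie near 2 different cuts. With more than 6 retained bases between them, at most 1 can lie near a cut. No shares are given for the other kinds of event in the groups or for groups without a long insert. In the whole library, deletions without inserted bases had both ends near a cut in 66.8%. With a limit of 6 retained bases both outer ends were near a cut in 46.3% of groups, and with 15 in 86.6%. The outer ends were most often the cuts of sites 1 and 10 (365 of 939 groups, 38.9%), followed by sites 1 and 9 (110, 11.7%), 2 and 10 (94, 10.01%), 1 and 5 (35, 3.73%) and 6 and 10 (31, 3.30%).

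The number of bases present between the outer ends of a group, retained and inserted together, clustered at multiples of the repeat unit. Its median was 35 bases (33 to 39), of which a median of 12 were retained and 24 inserted. There were 80 groups with 27 bases, 70 with 28 and 62 with 29, against 7 with 37. Further rises stood at 56 bases, with 45 groups against 5 with 60 bases, and at 83 bases, with 16 groups. Within 3 bases of 1 unit lay 352 groups (28.5%, 25.98 to 31.1%), within 3 of 2 units lay 212 (17.2%, 15.1 to 19.4%) and within 3 of 3 units lay 73 (5.91%, 4.66 to 7.37%). Among the 939 groups with both outer ends near a cut, 576 lay within 3 bases of any multiple of 27 (61.3%, 58.1 to 64.5%), a range that takes 25.9% of all lengths. With a limit of 6 retained bases, 31.4% of groups lay within 3 bases of 1, 2 or 3 units, against 51.5% with 10. Only 16 of the 303 single events lay within 3 bases of a multiple (5.28%, 3.05 to 8.43%), all of them at 1 unit. The 303 held a median of 11 bases (quartiles 9 and 15), so most were too short to reach 1 unit. They therefore cannot show whether the clustering is particular to groups. Deleted minus inserted bases of each long-insert event, divided by 27, left a remainder of 0 in 83 events (3.36%), near an even share of the 27 possible remainders. The commonest remainder was 2, in 231 events (9.36%). Of these, 122 were insert i at bases 223 to 265, a net loss of 29 bases.

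Groups also repeated as wholes. The 1236 groups had 681 different patterns of retained stretches, of which 527 were seen once. The commonest kept bases 154 to 159 alone (47 groups), bases 202 to 209 alone (41) or bases 217 to 222 alone (33). In 24 groups bases 168 to 175 and 218 to 223 were kept, and in 13 the 3 stretches 173 to 180, 187 to 194 and 202 to 209. A long-insert event was followed by another within 10 retained bases 598 times, in 502 different combinations. The commonest, in 9 alleles with 11 UMIs, was a deletion of bases 195 to 216 with the insert catcgctatgcgc, then bases 217 to 222 retained, then insert i at bases 223 to 265. Of the 8 commonest combinations, 6 had these same deletions and differed only in the middle letters of the insert at bases 195 to 216.

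The 303 events that stood alone differed from the 2166 near another event in several ways. Both ends were near a cut in 61.1% (55.3 to 66.6%), against 8.13% (7.01 to 9.36%). Part of this gap follows from how the sets were formed, since an event near another has an end that faces it across at most 10 retained bases. A or G made up 56.2% of their letters against 41.6%, and C 23.03% against 34.6%. Their inserts were found in more than 1 allele in 31.0% (25.9 to 36.6%) against 70.8% (68.8 to 72.7%), and GACTCCA was in 10.6% (7.34 to 14.6%) against 28.3% (26.4 to 30.2%). The median insert had 11 bases against 12, and the median deletion 56 bases (52 to 83) against 42. The share of alleles with 1 UMI was 75.6% (70.3 to 80.3%) against 71.2% (68.5 to 73.8%), with overlapping intervals.

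Alleles with a long insert had more events than others. An allele enters this class when any 1 of its events has a long insert, so more events give more chances to enter. How much of the difference follows from that was not tested. Of the 1417 alleles, 775 had 1 such event, 358 had 2, 182 had 3, 78 had 4 and 24 had 5. The median number of events of all kinds was 4 (interval 4 to 5) and the highest was 10, against a median of 3 in alleles whose longest delins insert had 4 to 7 or 1 to 3 bases and in alleles without delins events. Only 19 of the alleles had the long-insert event as their sole edit. The net loss, deleted minus inserted bases over the allele, had a median of 170 bases (167 to 176), against 186 (185 to 187), 185 and 187 in the other 3 classes.

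These alleles were mostly rare. In 1018 of the 1417 a single UMI was found (71.8%, 69.4 to 74.2%). The share was 61.4% (58.4 to 64.3%) in alleles whose longest delins insert had 4 to 7 bases, 63.8% (62.5 to 65.0%) with 1 to 3 bases and 60.2% (58.8 to 61.6%) without delins events. At least 5 UMIs were found in 66 alleles with a long insert (4.66%, 3.62 to 5.89%). The share was 5.98% (4.66 to 7.55%) where the longest delins insert had 4 to 7 bases, which overlapped. It was 7.15% (6.48 to 7.86%) with 1 to 3 bases and 11.1% (10.2 to 11.998%) without delins events. The mean was 1.67 UMIs and the highest 35. The highest was 26 in the class with 4 to 7 bases, 698 with 1 to 3 bases and 1589 without delins events.

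The number of events moves with this result. At 3 to 6 events the shares of alleles with 1 UMI had overlapping intervals: with 3 events 57.0% of 249 long-insert alleles (50.6 to 63.3%) and 60.1% of 4362 others (58.6 to 61.6%), with 4 events 71.8% of 312 and 73.0% of 2431, with 5 events 75.9% of 278 and 80.0% of 971, and with 6 events 79.2% of 231 and 83.0% of 347. With 2 events they did not overlap, at 62.1% of 132 (53.3 to 70.4%) and 49.3% of 2771 (47.4 to 51.1%). With 1 event the shares were 63.2% of 19 (38.4 to 83.7%) and 40.5% of 412 (35.8 to 45.5%), and with 8 events 86.7% of 60 (75.4 to 94.1%) and 66.7% of 9 (29.9 to 92.5%), gaps wider than over all alleles but with few alleles and overlapping intervals.

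The 10 long-insert alleles with the most UMIs had 12 to 35 of them, and all but 2 of them, with 32 and 14 UMIs, had the long insert in a group of close events that reached the cut of site 10. The most abundant, with 35 UMIs, had 6 events between bases 23 and 265, with TATGCGT inserted at bases 23 to 69, CATCGA at bases 114 to 150 and insert ii at bases 224 to 265. In all it kept 33 bases and gained 22, so that 55 bases lay between the cuts of sites 1 and 10. The next, with 32 UMIs, had 8 bases inserted in place of bases 23 to 65, letters found in no other allele, and a separate deletion of bases 77 to 265 with AAG. An allele with 17 UMIs had insert vii at bases 25 to 30 and insert viii at bases 36 to 153, followed by a deletion of bases 157 to 265, with 25 bases left between its outer ends.

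An allele with 16 UMIs carried insert ii at bases 224 to 265 and CATCGT at bases 195 to 218. Of 4 alleles with 14 UMIs, the first had a deletion of bases 23 to 241 with 9 inserted bases and AG inserted after base 265. Another of the 4 had 3 long inserts, in deletions of bases 23 to 69, 76 to 216 and 223 to 265, the last holding insert i. Another had insert v at bases 154 to 265.

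The last of the 4 had TATGCGC at bases 23 to 216 and insert i at bases 223 to 265, with 27 bases between the cuts of sites 1 and 10. An allele with 12 UMIs had insert iii at bases 25 to 72. Another with 12 UMIs had insert iv at bases 23 to 153 and CCATAG at bases 160 to 265, again with 27 bases in between. All inserts of 8 or more bases in these 10 alleles other than that of the allele with 32 UMIs were found in 3 or more alleles.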

How the data were processed

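Per the labels' protocols, liver RNA was copied from a UMI-tagged primer specific to the array, and the array at Col1a1 was amplified by nested PCR. The submitters' processing notes name the build mm10. No source used here names the program that called alleles or says how it splits an altered stretch into events. Deposited by the authors were 2 text lists, 1 of the edits of each allele and 1 of its 12-base UMIs, with no header and no read numbers, so the read depth is unknown. Each UMI was listed under 1 allele.

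Events were parsed with Python 3.11.15, numpy 2.4.6 and scipy 1.17.1, and the parsing was tested on simulated alleles. The array layout was taken from general knowledge, and no array sequence was used. Of listed insertions, 88.1% lay exactly at a predicted cut. Shares have exact Clopper-Pearson intervals and medians exact order-statistic intervals. Between events, retained bases were counted from the last altered base to the next.

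Named items were the 10 alleles with most UMIs (ties in list order), the 10 inserts in most alleles, the longest inserts, the 5 commonest site pairs and words (6 words, since the fifth place was tied), all 10 sites and Col1a1. Families were ends or starts with 40 or more events. The members and lists were chosen with earlier results of these data known. Alternatives are given in the closing section.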

Additional observations from a re-analysis of the deposited data

How the results depend on the processing

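Over 14 settings, 127 values of 15 results were recomputed. Of these, 41 lay within the interval of the main value, or for the count of events within 1.5 times, and 86 did not. For the shares of letters, binomial ranges over the letters were used for this, 42.8 to 43.9% for A or G and 58.2 to 59.2% for G or C. Since letters are not independent, these ranges are too narrow to serve as intervals. No comparison of groups was at stake, since 1 library was analysed, and no paired analysis was possible because no other sample was analysed here. The median number of events per allele stayed within its interval in each setting run. Minimums of UMIs and weighting by UMIs leave no value for the share of alleles with 1 UMI, and counting distinct events leaves none for values per allele. Leaving out the 10 commonest inserts and the 6- and 15-base limits on retained bases were chosen after the data had been seen, as were the 3 results on neighbouring events. What moves a value was not tested, apart from the fewer events that a stricter rule leaves. Few UMIs per allele limit the precision.

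With 6 or more inserted bases, long inserts were 26.4% of delins events and in 14.1% of alleles, with a median of 10 bases, 44.2% A or G and 57.9% G or C; 46.6% of deletions started and 46.4% ended near a cut, 26.7% of distinct inserts recurred, 69.4% of alleles had 1 UMI, 83.8% of events were near another event and 47.0% of groups held 1, 2 or 3 units. With 10 or more, long inserts were 14.0% of delins events and in 8.80% of alleles, with a median of 14 bases, and 89.3% were near another event. With 12 or more there were 1304 events, 10.1% of delins events, in 6.95% of alleles, with a median of 15 bases; 45.7% started and 39.6% ended near a cut, 90.3% were near another event, 78.4% of groups had both outer ends near a cut and 55.3% held 1, 2 or 3 units.

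In alleles with 2 or more UMIs there were 649 events, 15.8% of delins events, in 8.47% of alleles, with a median of 11 bases, 42.6% A or G and 59.6% G or C; 65.9% touched several windows, 19.5% of distinct inserts recurred and 56.0% of groups held 1, 2 or 3 units. In alleles with 3 or more UMIs there were 289 events, 15.1% of delins events, in 7.45% of alleles, with a median of 11 bases, 41.8% A or G and 59.7% G or C; 48.8% started near a cut, 68.5% touched several windows, 19.9% of distinct inserts recurred, 86.5% of groups had both outer ends near a cut and 56.8% held 1, 2 or 3 units. Weighted by UMIs, the count was 3883 and long inserts were 15.8% of delins events, with a median of 11 bases. Alleles with a long insert held 7.31% of UMIs. With this weighting, 63.2% of deletions touched several windows, 79.1% of groups had both outer ends near a cut and 54.5% held 1, 2 or 3 units.

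Counted once each, 1328 distinct events were 24.9% of distinct delins events, with 45.0% A or G and 56.8% G or C; 49.8% started and 38.9% ended near a cut and 53.5% touched several windows. Without alleles that have several long inserts, 775 events were left, 7.69% of delins events, in 6.39% of alleles, with a median of 11 bases and 48.0% A or G. There, 56.8% started and 57.7% ended near a cut, 73.2% touched several windows, 16.8% of distinct inserts recurred, 68.4% of alleles had 1 UMI, 67.5% of events were near another event and 58.9% of groups held 1, 2 or 3 units.

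Within 5 bases of a cut, 55.9% of deletions started and 70.2% ended. In a separate setting, a site counted as touched when any of the 20 bases of its target was lost, and 70.3% touched 2 or more sites. Without the 10 commonest inserts, 48.7% started and 35.6% ended near a cut, 51.8% touched several windows, A or G made up 44.2% and G or C 57.5%, 84.7% were near another event and 48.1% of groups held 1, 2 or 3 units. With a limit of 6 retained bases, 68.4% of events were near another event, 46.3% of groups had both outer ends near a cut and 31.4% held 1, 2 or 3 units; with 15 these were 90.3%, 86.6% and 55.1%.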
